A study of Mus musculus with 12 samples.

Results

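Hopx, Hey1, Hey2 and the Iroquois genes Irx1, Irx2, Irx3, Irx4 and Irx5 are 8 regulators of ventricular and chamber myocardium, and their RNA was followed across 4 genotypes of the E8.75 mouse heart, a stage at which the looping heart tube forms its chambers. The genes were picked by name from the array's annotation and make up 8 of the 19938 genes measured. Each was read by 1 probe set, the only probe set listed for that symbol alone.

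The study asked how the loss of Nkx2-5, of Tbx5 and of both transcription factors changes gene expression in the embryonic heart. Hearts were Nkx2-5 KO, Tbx5 KO, Tbx5 KO;Nkx2-5 KO (called double KO here) or wild type (WT), all dissected at E8.75, with 3 Affymetrix arrays for each genotype and 12 in all. The titles call the arrays of a genotype biological replicates. The KO alleles, the deleted exons, the strain and the number of hearts behind an array are not given in the sources used here. No treatment is named for any group.

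Iroquois genes encode homeodomain transcription factors of the TALE class and lie in clusters in the genome. Irx4 is known as a ventricular gene of the early heart, Irx3 and Irx5 for the conduction system and for repolarisation of the ventricular wall, and Irx1 and Irx2 for the ventricular septum. Hey1 and Hey2 encode bHLH repressors that Notch signalling switches on. Hey1 marks atrial and Hey2 ventricular myocardium, and both restrict the atrioventricular canal programme to the boundary between the chambers. Hopx encodes a small homeodomain protein that does not bind DNA itself and is known to act with the serum response factor SRF and with histone deacetylases. It has been described as a downstream gene of Nkx2-5 in the heart.

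Only Hopx and Irx4 passed the test in any comparison. Hopx fell below WT in each KO genotype, by 1.63-fold where Nkx2-5 was lost, 2.46-fold where Tbx5 was lost and 3.05-fold where both were. Irx4 fell in both genotypes that lack Nkx2-5, by 1.65-fold in the single and 1.85-fold in the double KO, while its value in Tbx5 KO hearts differed from WT by -0.03 ± 0.17 on the log2 scale. The other 6 genes passed the test in none of the 6 comparisons between genotypes. Here and below a change is a difference of mean log2 values with its standard error, over 3 arrays a group, and a gene was called when its limma p, adjusted by Benjamini and Hochberg over all 19938 genes, was under 0.05.

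**Figure D1:**
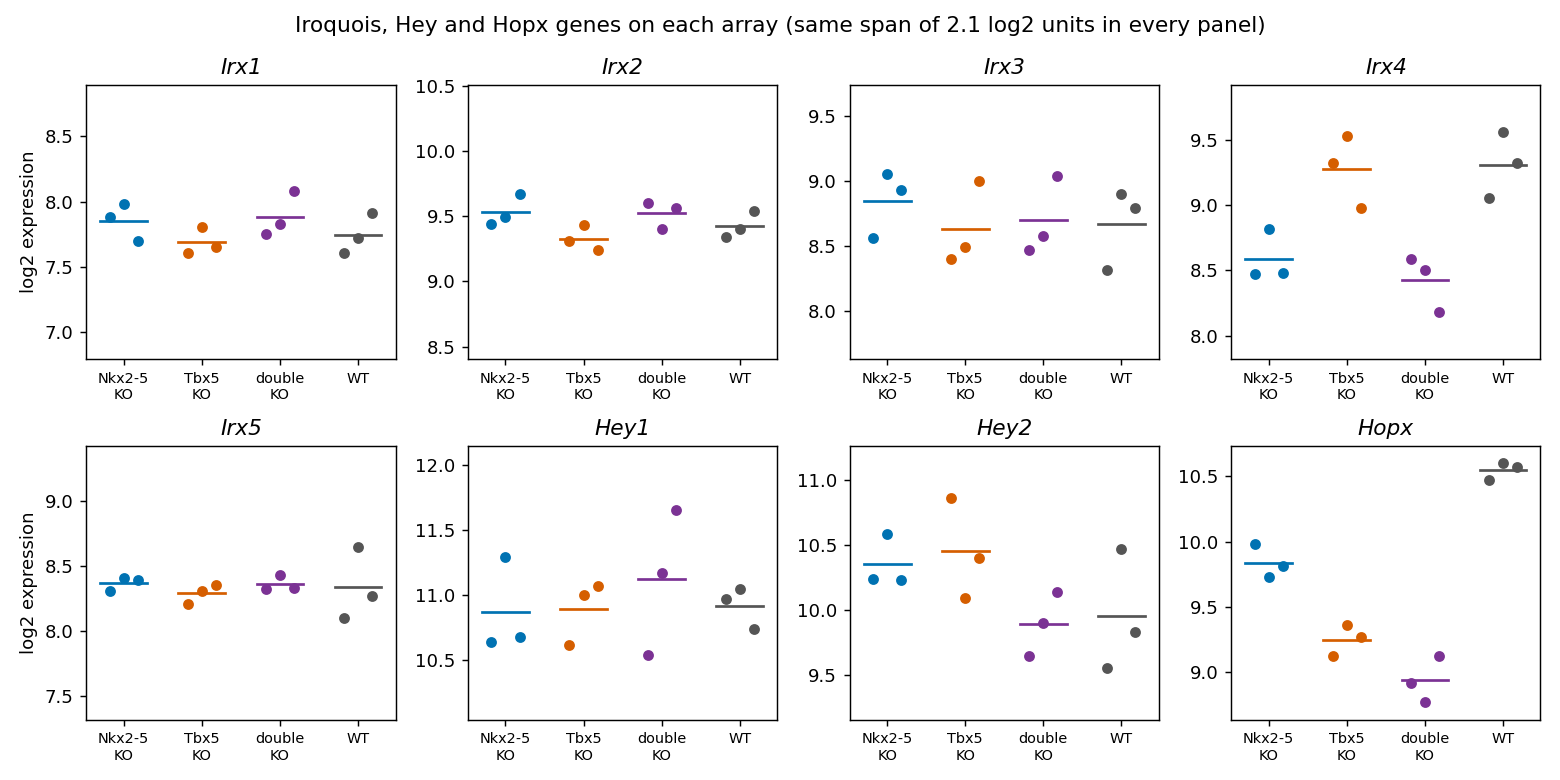
Log2 expression of the 8 genes on each of the 12 arrays (points) with the group mean (line), for Nkx2-5 KO, Tbx5 KO, double KO and WT hearts. Every panel spans the same number of log2 units. The 3 WT arrays of Hopx lie above all 9 KO arrays, and the 6 arrays without Nkx2-5 are the lowest for Irx4.

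The labels and the tissue were checked on a few genes. Nkx2-5 read 8.96, 8.72 and 9.13 in Nkx2-5 KO, 9.05, 9.21 and 8.97 in double KO and 9.33, 9.36 and 9.35 in WT hearts. Tbx5 read 10.73, 10.42 and 10.45 in Tbx5 KO, 10.31, 10.65 and 10.83 in double KO and 10.15, 10.13 and 9.90 in WT hearts, so it was not lower where it was deleted. Which exons the probe sets read relative to the deletion is not known, so neither gene checks the genotype. Mean levels of 12 cardiomyocyte markers ran from 12.9 to 13.1 in Nkx2-5 KO, 13.0 to 13.1 in Tbx5 KO, 12.9 to 13.0 in double KO and 13.0 to 13.1 in WT hearts, so the tissue carried its defining RNAs in every group. The groups differed in sex-linked RNA, with 3 of 4 measured genes called against WT in Nkx2-5 KO hearts, 0 for Tbx5 KO and 4 for double KO. Xist read 6.59 to 7.03 in Nkx2-5 KO, 11.5 to 12.3 in Tbx5 KO, 6.44 to 8.16 in double KO and 11.5 to 11.9 in WT hearts, and the Y-linked Eif2s3y ran the other way. Loss of Nkx2-5 and this difference therefore cannot be told apart in comparisons that cross them. That touches every Irx4 call. It also touches Hopx wherever Nkx2-5 KO or double KO hearts are set against WT or Tbx5 KO hearts. Tbx5 KO against WT and double KO against Nkx2-5 KO each compare groups of the same broad pattern, with 0 sex-linked calls, though the ranges were not equal. Eif2s3y read 5.13 to 5.68 in Tbx5 KO and 5.07 to 6.92 in WT hearts. It read 10.3 to 10.7 in Nkx2-5 KO and 10.4 to 10.6 in double KO hearts. Trophoblast and decidua markers (7 measured) averaged 8.27 to 8.39 in Tbx5 KO hearts and 6.63 to 6.68 in WT hearts. Of these, 3 rose in Tbx5 KO hearts, among them Prl3d3 by 4.32 ± 0.35, against 0 in Nkx2-5 KO and 1 in double KO hearts. Their part in the results was not tested.

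Hopx is described first, since it is the one gene that moved in every KO. For 2 of its starts RefSeq gives a promoter (build GRCm38.p6, minus strand, 250 bases before and 50 after the start). The upstream start lies in chr5:77115074-77115373 and the downstream start in chr5:77095218-77095517. They are printed 5′ to 3′ because the factors lost here and SRF are DNA-binding proteins tied to Hopx by earlier work. Capitals mark matches, on either strand, to 5 searched motifs: the T-box element AGGTGT, the NKX2-5 element TNAAGTG, the GATA site AGATAA, the RBPJ site GTGGGAA and the SRF-bound CArG box.
Hopx upstream start: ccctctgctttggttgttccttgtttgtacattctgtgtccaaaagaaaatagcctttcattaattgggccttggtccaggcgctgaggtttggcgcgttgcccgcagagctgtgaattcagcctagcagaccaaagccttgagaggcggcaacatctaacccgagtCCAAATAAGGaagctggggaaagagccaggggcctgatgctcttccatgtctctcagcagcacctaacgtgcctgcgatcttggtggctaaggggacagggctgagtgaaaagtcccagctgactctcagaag
Hopx downstream start: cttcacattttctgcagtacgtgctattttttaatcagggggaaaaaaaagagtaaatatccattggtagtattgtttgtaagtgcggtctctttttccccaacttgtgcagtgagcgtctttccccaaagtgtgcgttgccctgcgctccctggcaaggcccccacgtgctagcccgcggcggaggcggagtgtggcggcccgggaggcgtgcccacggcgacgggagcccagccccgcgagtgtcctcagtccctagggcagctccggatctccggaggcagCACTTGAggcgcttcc
The upstream promoter held 1 CArG box, from base -83 to base -74, counting the start as base 1 with no base 0. Of the 32851 promoters of 300 bases in the table, 1.63% held one. The downstream promoter held 1 NKX2-5 element on the opposite strand, from base 35 to base 41, as did 11.5% of all promoters. Neither held a T-box element (13.7% of all promoters), a GATA site (11.2%) or an RBPJ site (6.38%), and no matches overlapped (0 pairs). A match is a stretch of letters and not a measured binding site, and the array does not tell the starts apart.

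Hopx read 9.98, 9.73 and 9.81 in Nkx2-5 KO, 9.12, 9.36 and 9.27 in Tbx5 KO, 8.92, 8.77 and 9.12 in double KO, and 10.47, 10.60 and 10.57 in WT hearts. All WT arrays lay above every KO array, and the Nkx2-5 KO arrays lay above all those of the other KO genotypes. Double KO and Tbx5 KO arrays overlapped near 9.12.

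Against WT, Hopx fell by 0.71 ± 0.11 in Nkx2-5 KO hearts (95% interval -0.95 to -0.46, adjusted p = 0.00614), with a gap of 0.49 between the nearest arrays. It fell by 1.30 ± 0.11 in Tbx5 KO hearts (-1.54 to -1.06, adjusted p = 5.52e-05), with a gap of 1.11. In double KO hearts it fell by 1.61 ± 0.11 (-1.85 to -1.37, adjusted p = 4.01e-06), with a gap of 1.35. The 3 changes share the WT arrays. All remained called under each of 15 other ways of processing the values, with adjusted p up to 0.0274 for Nkx2-5 KO, 0.00122 for Tbx5 KO and 0.000347 for double KO. In a sample of whole hearts, fewer cells of a type and less RNA per cell cannot be told apart, here and for every gene below.

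Among KO genotypes, Hopx was lower in double KO than in Nkx2-5 KO hearts by 1.87-fold (-0.90 ± 0.11, adjusted p = 0.000916, called under all 15 alternatives), so loss of Tbx5 lowered it also where Nkx2-5 was absent. Loss of Nkx2-5 where Tbx5 was absent gave -0.31 ± 0.11 in double KO against Tbx5 KO hearts, with an interval of -0.55 to -0.07. Its adjusted p of 0.1 did not pass, but it passed under 1 of 15 alternatives, without double KO replicate 3 (0.0413). Tbx5 KO hearts held less Hopx RNA than Nkx2-5 KO hearts (-0.59 ± 0.11, 1.51-fold, adjusted p = 0.0127). That call ended without Nkx2-5 KO replicate 1 (0.076) or Tbx5 KO replicate 1 (0.0721).

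The double KO change was smaller than the sum of both single KO changes by 0.40 ± 0.16 on the log2 scale (0.05 to 0.74). This non-additive term had a limma p of 0.0268 and an adjusted p of 0.459, and it passed under none (0) of 20 alternatives.

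**Figure D2:**
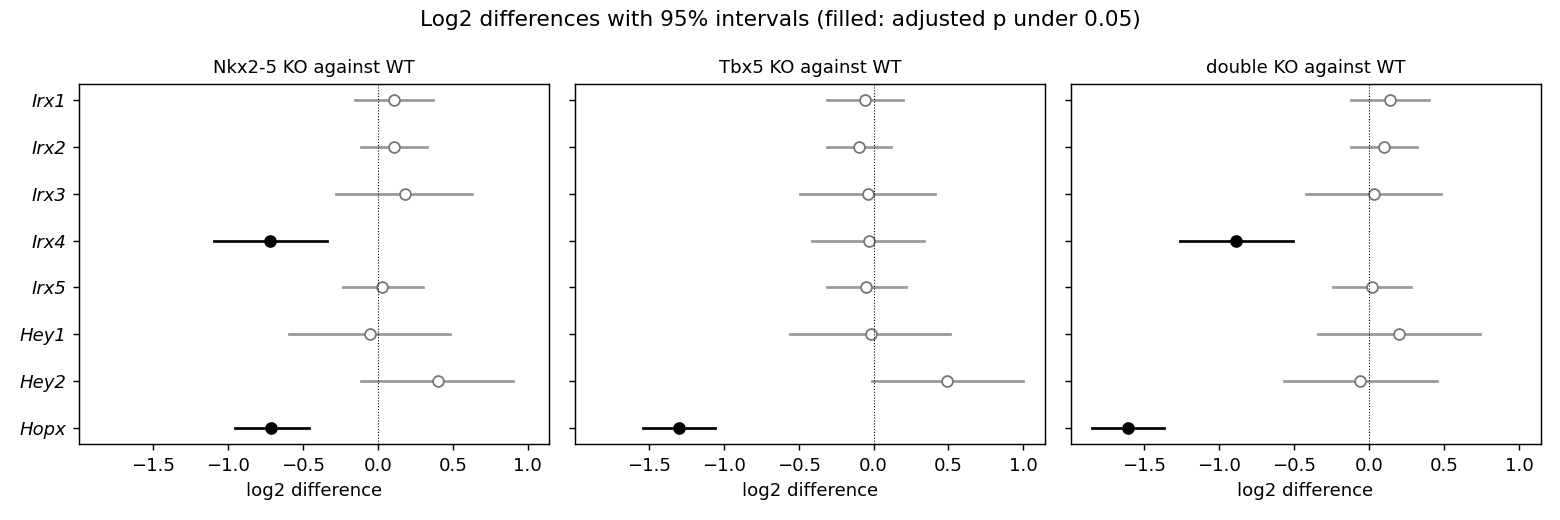
Differences of mean log2 expression from WT for the 8 genes (points) with 95% intervals (lines), in a panel each for Nkx2-5 KO, Tbx5 KO and double KO, with called genes filled. Hopx is called in all 3 panels and Irx4 in those of Nkx2-5 KO and double KO, while the intervals of the other 6 genes include 0.

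Irx4, known from mouse and chick as a ventricular factor, was called lower where Nkx2-5 was absent. RefSeq's promoter for it lies in chr13:73260247-73260546 on the plus strand, at a start inside the span that RefSeq gives the gene. It is shown because Irx4 is the other gene that changed, and it held no match to the 5 motifs (0 matches), so it has no capitals. That says only that these letters are not in this window.
Irx4: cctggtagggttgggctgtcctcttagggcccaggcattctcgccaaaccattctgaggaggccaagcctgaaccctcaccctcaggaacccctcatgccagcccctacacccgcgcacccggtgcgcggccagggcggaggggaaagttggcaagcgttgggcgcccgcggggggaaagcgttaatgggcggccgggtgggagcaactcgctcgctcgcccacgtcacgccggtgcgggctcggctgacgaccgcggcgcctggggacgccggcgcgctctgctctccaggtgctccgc
The window was rich in G and C (70.7%, against a median of 52.7% over all promoters).

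Irx4 read 8.47, 8.82 and 8.48 in Nkx2-5 KO, 9.32, 9.53 and 8.98 in Tbx5 KO, 8.59, 8.50 and 8.18 in double KO, and 9.05, 9.56 and 9.32 in WT hearts. The 6 arrays of hearts without Nkx2-5 lay below the 6 arrays of hearts with it. Within each of these sets the arrays of both genotypes overlapped.

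Irx4 was lower in double KO than in WT hearts by 0.89 ± 0.17 (-1.26 to -0.51, adjusted p = 0.00263) and lower in double KO than in Tbx5 KO hearts by 0.85 ± 0.17 (-1.23 to -0.48, adjusted p = 0.0072). Both held under all 15 alternatives. In Nkx2-5 KO against WT hearts it fell by 0.72 ± 0.17 (-1.09 to -0.34, adjusted p = 0.0362), a call that held under 9 of 15 alternatives. It ended without WT replicate 1 (0.0502), 2 (0.0976) or 3 (0.0965), without Nkx2-5 KO replicate 1 (0.141) or 3 (0.126), and with all probe sets tested together (0.089). Loss of Tbx5 gave no call in either state of Nkx2-5. The value was -0.03 ± 0.17 (-0.41 to 0.34) in Tbx5 KO against WT and -0.17 ± 0.17 (-0.54 to 0.21) in double KO against Nkx2-5 KO hearts.

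In Tbx5 KO against Nkx2-5 KO hearts Irx4 read 0.68 ± 0.17, with no overlap of the arrays and an adjusted p of 0.0639. It passed there with array weights (0.00421), with the replicate number as a block (0.0271) and without Tbx5 KO replicate 3 (0.0343). The non-additive term was -0.14 ± 0.24 (adjusted p = 0.92).

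**Figure D3:**
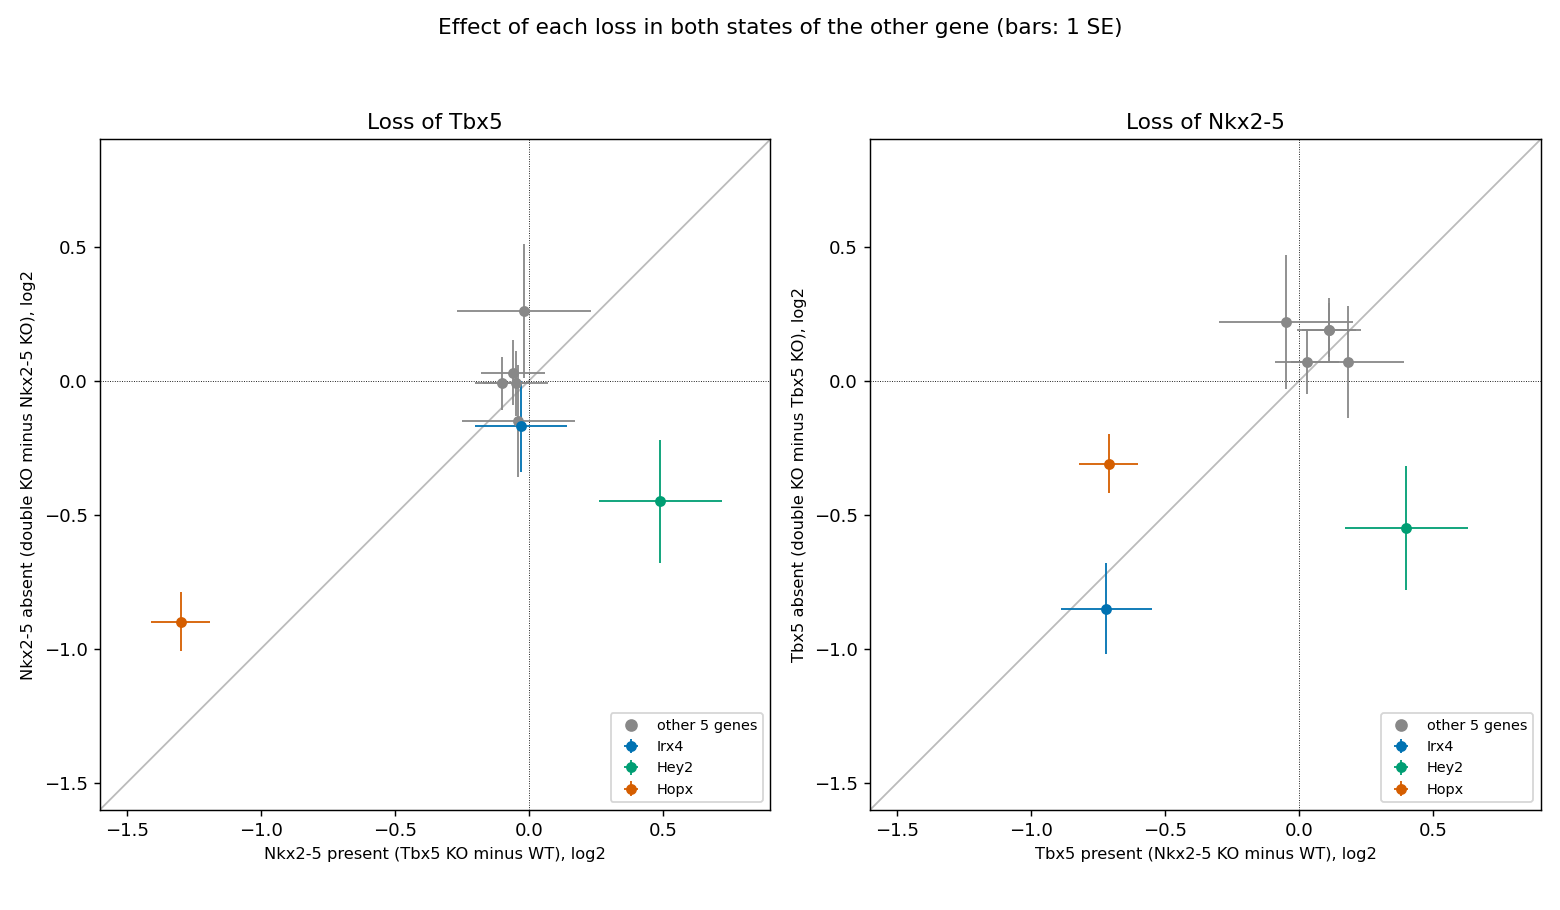
Log2 effect of losing Tbx5 (left) and of losing Nkx2-5 (right) where the other gene is absent (vertical) against where it is present (horizontal), with bars of 1 standard error and a line of equal effects. Hopx lies low in both panels, and Irx4 lies near 0 for Tbx5 and at -0.72 and -0.85 for Nkx2-5. Hey2 has opposite signs in the states of the other gene, and its values were not called.

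Irx1, Irx2, Irx3 and Irx5 were called in none of the 6 comparisons (0 calls each). Irx1 read 7.70 to 7.98 in Nkx2-5 KO, 7.61 to 7.81 in Tbx5 KO, 7.75 to 8.08 in double KO and 7.61 to 7.91 in WT hearts. Irx2 read 9.44 to 9.67 in Nkx2-5 KO, 9.24 to 9.43 in Tbx5 KO, 9.40 to 9.60 in double KO and 9.34 to 9.54 in WT hearts. For both genes every KO group overlapped WT. Irx3 read 8.56 to 9.05 in Nkx2-5 KO, 8.40 to 9.0 in Tbx5 KO, 8.47 to 9.04 in double KO and 8.32 to 8.90 in WT hearts. Irx5 read 8.31 to 8.41 in Nkx2-5 KO, 8.21 to 8.35 in Tbx5 KO, 8.32 to 8.43 in double KO and 8.10 to 8.64 in WT hearts. The 3 WT arrays of Irx5 spanned all of its KO arrays.

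The intervals bound what could have been missed in array signal. Irx1 lay at percentiles 31.3 to 43.4 of the genes on an array and Irx5 at 44.6 to 56.5. How fully signal at such levels follows RNA was not tested, so the bounds are not bounds on RNA. Over the 6 comparisons, the 95% intervals of Irx5 stayed within -0.34 and 0.33, or at most a 1.27-fold difference. These intervals use the shared spread, while the standard deviation of Irx5 was 0.28 in WT and 0.05 to 0.07 in KO hearts. Those of Irx2 reached 1.34-fold, those of Irx1 1.37-fold and those of Irx3 1.59-fold. Irx2 in Tbx5 KO against Nkx2-5 KO hearts was the one case among these 4 genes in which the arrays did not overlap (-0.20 ± 0.10, adjusted p = 0.436). Irx6, the remaining member of the cluster that holds Irx3 and Irx5, was not called either, with 0.21 ± 0.11 in double KO against WT hearts (adjusted p = 0.171).

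Hey2, the ventricular member of the Hey pair, passed no test (0 calls), and its values spread widely within groups. Its RefSeq promoter in chr10:30842734-30843033 (minus strand) is shown because RBPJ is the factor through which Notch acts on Hey genes, and it held 2 RBPJ sites (capitals), from base -207 to base -201 on the opposite strand and from base -4 to base 3.
Hey2: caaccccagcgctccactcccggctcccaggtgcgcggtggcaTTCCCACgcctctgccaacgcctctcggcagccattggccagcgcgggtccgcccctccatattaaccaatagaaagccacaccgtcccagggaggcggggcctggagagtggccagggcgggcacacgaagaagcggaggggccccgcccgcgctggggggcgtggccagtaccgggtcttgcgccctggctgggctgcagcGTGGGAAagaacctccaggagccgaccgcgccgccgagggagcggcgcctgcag
An RBPJ site stood in 6.38% of all promoters. The promoter of Irx2 held 1 RBPJ site too, and that of Irx3 held no match to the 5 motifs (0 matches).

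Hey2 read 10.24, 10.58 and 10.23 in Nkx2-5 KO, 10.86, 10.09 and 10.40 in Tbx5 KO, 9.65, 9.90 and 10.14 in double KO, and 9.56, 10.47 and 9.83 in WT hearts. Both single KO means were above WT and the double KO mean was near it, but the WT arrays alone spanned 9.56 to 10.47. No comparison was called. The value was 0.40 ± 0.23 in Nkx2-5 KO (adjusted p = 0.434), 0.49 ± 0.23 in Tbx5 KO (adjusted p = 0.352) and -0.06 ± 0.23 in double KO hearts (adjusted p = 0.879), each against WT. In double KO against Tbx5 KO hearts Hey2 read -0.55 ± 0.23, with an adjusted p of 0.166 that became 0.0467 with array weights. Against Nkx2-5 KO hearts it read -0.45 ± 0.23 in double KO hearts, where the arrays did not overlap (adjusted p = 0.28). The non-additive term was -0.95 ± 0.33 (-1.66 to -0.23). Its limma p was 0.0137 and its adjusted p 0.346, and it passed under none (0) of 20 alternatives.

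Hey1, the atrial member, read 10.64, 11.29 and 10.68 in Nkx2-5 KO, 10.62, 11.00 and 11.07 in Tbx5 KO, 10.54, 11.17 and 11.65 in double KO, and 10.97, 11.05 and 10.74 in WT hearts. All groups overlapped, and the double KO arrays spread most. The largest difference from WT was 0.20 ± 0.25, in double KO hearts. Over the 6 comparisons the intervals reached 1.73-fold for Hey1 and 2.08-fold for Hey2. For Hey2 that bound comes from double KO against Tbx5 KO hearts, while its interval was -0.57 to 0.45 in double KO and -0.11 to 0.90 in Nkx2-5 KO hearts against WT. Heyl, the remaining Hey family gene, was not called, with 0.21 ± 0.12 in double KO against WT hearts (adjusted p = 0.22).

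Counted over the 8 genes, 2 were lower and 0 higher in Nkx2-5 KO than in WT hearts, a comparison that called 4.43% of all genes (2.59% lower and 1.84% higher). In Tbx5 KO against WT hearts 1 was lower and 0 higher, beside 2.31% of all genes (1.31% and 0.998%). In double KO against WT hearts 2 were lower and 0 higher, beside 23.4% of all genes (14.4% and 9.05%), and this count is near its background. Double KO hearts had 1 lower and 0 higher gene against Nkx2-5 KO, beside 5.56% of all genes (4.55% and 1.01%). Against Tbx5 KO they had 1 lower and 0 higher, beside 10.7% (7.86% and 2.87%). In Tbx5 KO against Nkx2-5 KO hearts 1 was lower and 0 higher, beside 2.39% (1.37% and 1.01%). The non-additive term had 0 calls by limma, beside 0.547% of all genes called (0.456% lower and 0.0903% higher). Hopx and Hey2 had an unadjusted limma p under 0.05 there. The share of all genes at that looser threshold was not computed, so it is no result about the 8 genes. Centring each array on its median moved the split of all genes towards lower calls, to 209 higher and 646 lower in Nkx2-5 KO, 131 and 294 in Tbx5 KO and 779 and 3769 in double KO, each against WT, and to 302 and 1917 in double KO against Tbx5 KO. As deposited the splits were 367 and 517, 199 and 262, 1804 and 2868, and 572 and 1567. The calls among the 8 genes were the same under that centring.

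Arrays that do not overlap were common over the whole table. Against WT this held for 2 of the 8 genes in Nkx2-5 KO (23.2% of all genes), for 1 in Tbx5 KO (21.1%) and for 2 in double KO hearts (41.1%). It held for 2 in double KO against Nkx2-5 KO (26.1%), 1 in double KO against Tbx5 KO (29.0%) and 3 in Tbx5 KO against Nkx2-5 KO hearts (18.4%). The median difference of the 8 genes was 0.07 for Nkx2-5 KO, -0.04 for Tbx5 KO and 0.02 for double KO against WT, beside 0, 0.01 and 0.06 over all genes. Against WT the 8 genes thus had medians close to those of all genes. In double KO hearts their median was -0.08 against Nkx2-5 KO (0.04 over all genes) and 0.07 against Tbx5 KO (0.05). In Tbx5 KO against Nkx2-5 KO hearts it was -0.12 (0.01 over all genes).

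Genes of chamber myocardium and trabeculae, the tissue these regulators act in, gave the setting. All list counts below stand beside the 4.43%, 2.31% and 23.4% of all genes called in Nkx2-5 KO, Tbx5 KO and double KO against WT. Of 24 measured chamber genes, 10 fell and 0 rose in Nkx2-5 KO, 11 fell and 0 rose in Tbx5 KO, and 17 fell and 2 rose in double KO hearts, with median differences of -0.36, -0.33 and -0.77. These totals stayed between 7 and 13, 8 and 12, and 15 and 19 under the 15 alternatives. One of them was Nppa, which encodes atrial natriuretic peptide. Its change was -2.65 ± 0.26 for Nkx2-5 KO, -3.31 ± 0.26 for Tbx5 KO and -5.24 ± 0.26 for double KO. That of Smpx, a small muscle protein of the chambers, was -2.77 ± 0.24, -1.15 ± 0.24 and -3.25 ± 0.24 in the same order. Bmp10, a growth factor of trabecular myocardium, changed by -3.07 ± 0.21 for Tbx5 KO and -3.23 ± 0.21 for double KO but read 0.29 ± 0.21 in Nkx2-5 KO hearts (adjusted p = 0.571). Like Hopx, Nppa fell in all 3 genotypes, while Bmp10 was called in the genotypes without Tbx5 and Irx4 in those without Nkx2-5. These comparisons share the WT arrays.

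**Figure D4:**
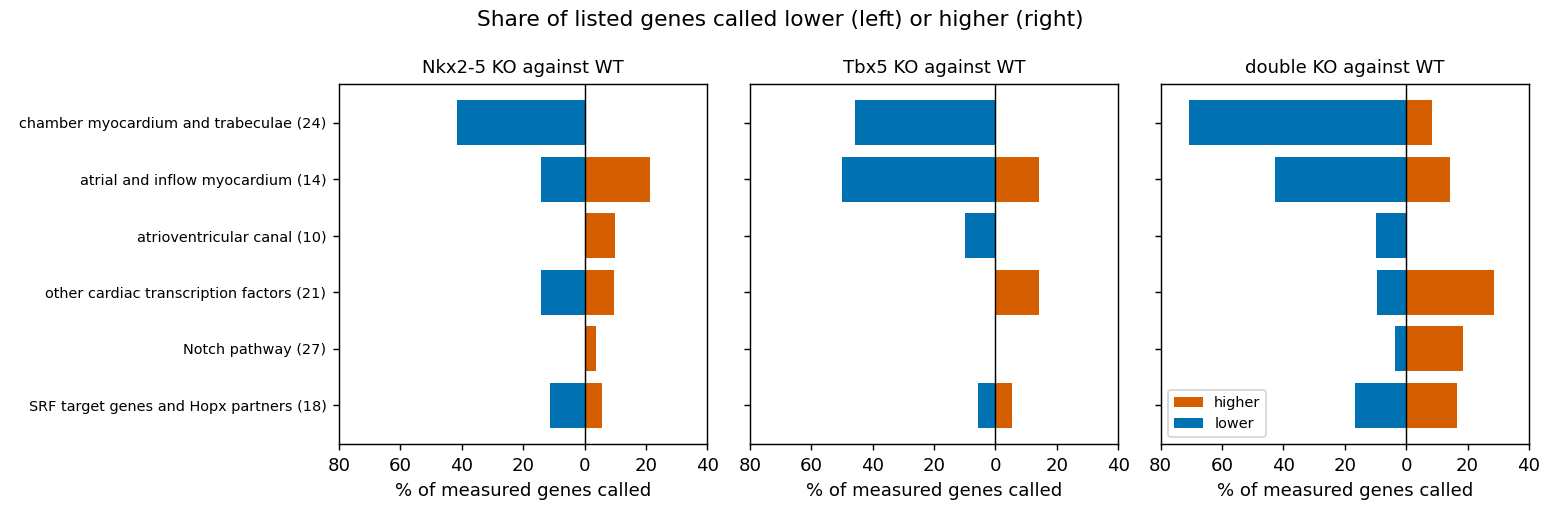
Share of the measured genes of 6 lists (number in brackets) called lower (left of 0) or higher (right of 0) than WT, with a panel each for Nkx2-5 KO, Tbx5 KO and double KO. Chamber genes were called lower in each genotype, 17 of 24 in double KO hearts. Over all genes 4.43%, 2.31% and 23.4% were called in the 3 panels, and the 6 of 27 Notch pathway genes called in double KO hearts are near that share. The list of other cardiac transcription factors includes Nkx2-5 and Tbx5.

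Atrial and inflow genes (14 measured) had 3 higher and 2 lower in Nkx2-5 KO, 2 higher and 7 lower in Tbx5 KO and 2 higher and 6 lower in double KO hearts. The 5 calls of Nkx2-5 KO came down to 1 without its replicate 1 and to 2 without its replicate 2 or without WT replicate 1 or 3. Vsnl1, a calcium sensor and inflow marker, rose in Nkx2-5 KO hearts (1.80 ± 0.19) and fell in Tbx5 KO (-3.67 ± 0.19) and double KO hearts (-3.19 ± 0.19). Atrioventricular canal genes (10 measured), which Hey factors restrict, had 1 higher in Nkx2-5 KO hearts and 1 lower each in Tbx5 KO and double KO hearts. They were Tbx3, a T-box repressor (0.93 ± 0.16, a call that ended without Nkx2-5 KO replicate 1 at adjusted p = 0.0516), Bmp2, a growth factor of the canal (-1.24 ± 0.28, lost in 6 of 15 alternatives), and Rspo3, a Wnt agonist (-1.39 ± 0.23, called in all 15). The single call in double KO hearts is below the 23.4% of all genes called there, and the counts are no result about the canal list.

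The Notch pathway list (27 measured) holds receptors, ligands and other genes upstream of Hey1 and Hey2, and also pathway targets such as Heyl. It had 1 higher and 0 lower in Nkx2-5 KO, 0 of either in Tbx5 KO, and 5 higher and 1 lower in double KO hearts. Median differences were 0.08, 0.05 and 0.15. These counts are near the share of all genes called in each comparison (4.43%, 2.31% and 23.4%), so they are no result about the pathway, and its genes are given one by one. In double KO hearts the receptor Notch1 rose by 0.70 ± 0.15 (adjusted p = 0.00507), the ligand Dll4 by 0.69 ± 0.14 (0.00326), the coactivator Maml3 by 0.78 ± 0.14 (0.00135) and the non-canonical ligand Dlk1 by 1.13 ± 0.25 (0.00609). All 4 held under the 15 alternatives, while the single call in Nkx2-5 KO hearts, also Maml3 (0.64 ± 0.14), was lost in 5 of them, 4 of which left out an array (WT replicates 1 and 2, Nkx2-5 KO replicates 1 and 3). The fifth was the ligand Jag2 (0.49 ± 0.09), and the gene that fell was Adam10, a protease that cleaves Notch receptors (-0.56 ± 0.11). Rbpj, the DNA-binding partner of the pathway, read 0.28 ± 0.14 (adjusted p = 0.157), and Hey1 and Hey2 were not called beside them. The 14 endocardium and endothelium markers, whose cells also express Notch1 and Dll4, averaged 9.59 to 9.68 in double KO and 9.43 to 10 in WT hearts. Of them, 1 rose and 5 fell in double KO hearts. Their part in the Notch values was not tested.

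SRF target genes and Hopx partners (18 measured) had 1 higher and 2 lower in Nkx2-5 KO, 1 higher and 1 lower in Tbx5 KO and 3 higher and 3 lower in double KO hearts, with median differences of -0.09, 0.01 and -0.13. In double KO hearts 14.4% of all genes were called lower and 9.05% higher, and the 3 lower and 3 higher of so short a list are no result about it. Egr1, an immediate early gene, rose by 1.87 ± 0.26 in double KO hearts. Its rise in Nkx2-5 KO hearts (1.42 ± 0.26, adjusted p = 0.0129) was lost when WT replicate 1 or Nkx2-5 KO replicate 3 was left out. Leaving out 1 array took the list to 0 calls for Nkx2-5 KO (WT replicate 1 or Nkx2-5 KO replicate 3) and to 3 for double KO (WT replicate 1 or double KO replicate 2). Srf and Hdac2, through which Hopx is known to act, were not called in any KO against WT. Srf read -0.09, 0.05 and 0.02 and Hdac2, a histone deacetylase, -0.04, -0.09 and -0.15 for Nkx2-5 KO, Tbx5 KO and double KO. A list of 21 measured cardiac transcription factors, Nkx2-5 and Tbx5 among them, had 2 higher and 3 lower, 3 higher and 0 lower, and 6 higher and 2 lower in those genotypes. The 3 lower in Nkx2-5 KO included Nkx2-5 itself (-0.41 ± 0.11, adjusted p = 0.0499), and the 6 higher in double KO hearts included Tbx5 (0.54 ± 0.15, adjusted p = 0.0193), whose probe sets do not check the genotype. Hand1, a bHLH factor of the left ventricle and of extraembryonic tissue, rose by 1.18 ± 0.13 in Tbx5 KO hearts, the group with the trophoblast markers. Without Nkx2-5 KO replicate 1 the factors had 0 calls in that genotype, and without double KO replicate 2 they had 3 in double KO hearts.

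Markers of cell types were counted in the same way. The cardiomyocyte markers had 0 calls in Nkx2-5 KO, 1 lower in Tbx5 KO and 3 higher and 3 lower in double KO hearts, of which the higher ones were lost (0 left) when arrays were centred on their medians. Blood markers (10 measured) had 4 lower in double KO hearts and 0 calls in the single KOs, with list means of 8.70 to 9.21 in double KO and 9.38 to 10.5 in WT hearts. Endoderm markers (12 measured) had 2, 1 and 5 higher and 0 lower, with list means of 8.50 to 8.78 in double KO and 8.10 to 8.50 in WT hearts. Pharyngeal mesenchyme and neural crest markers (14 measured) had 0, 0 and 3 calls in the genotypes in that order, the last 1 higher and 2 lower. Proepicardium and epicardium markers (9 measured) had 0, 1 and 5, with 1 lower in Tbx5 KO and 1 higher and 4 lower in double KO hearts. Neural and surface ectoderm markers (12 measured) had 3, 2 and 3, of which 2, 1 and 2 were higher. Pax6 changed by 1.70 ± 0.16, 0.97 ± 0.16 and 1.85 ± 0.16 in that order, and Tubb3 by -1.49 ± 0.27, -1.73 ± 0.27 and -1.55 ± 0.27, all called. The share of all genes called was also higher in double KO hearts (23.4%) than in Nkx2-5 KO (4.43%) and Tbx5 KO hearts (2.31%), each against WT. A higher count there is therefore not by itself a result about a marker list. In double KO hearts the pharyngeal (3 of 14) and ectoderm counts (3 of 12) were near that share. The proepicardial (5 of 9), endoderm (5 of 12), blood (4 of 10) and cardiomyocyte counts were above it. The endocardium and endothelium count (1 higher and 5 lower of 14) was above it too. In the single KOs every marker list with a call was above the share of all genes, as any call in so short a list is. The lists are short and were not tested as sets. These counts moved with the processing. In double KO hearts, blood markers ranged from 2 to 7 over the alternatives, endoderm markers from 1 (without WT replicate 2) to 7 (without WT replicate 3), pharyngeal markers from 1 to 4, proepicardial markers from 3 to 7 and ectoderm markers from 3 to 6. Their part in the Hopx and Irx4 values was not tested.

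Position in the genome was looked at through the next 2 RefSeq genes on either side of each of the 8 genes. Most of these neighbours were not measured, and Irx1, Irx2, Hey1 and Hey2 had no measured neighbour. Ndufs6, a subunit of mitochondrial complex I, follows Irx4 past a pseudogene. It fell by 0.84 ± 0.09 in double KO against WT hearts (adjusted p = 4.33e-05). It was lower in double KO than in Nkx2-5 KO hearts by 0.50 ± 0.09 (0.00602) and than in Tbx5 KO hearts by 0.70 ± 0.09 (0.000336). In Nkx2-5 KO against WT hearts it read -0.34 ± 0.09 (0.0454, called under 6 of 15 alternatives), and in Tbx5 KO hearts -0.14 ± 0.09 (0.516). The other measured neighbours, the noncoding Irx3os and Crnde, Irx6 and Thegl, were not called.

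The genes most like each regulator over the 12 arrays were listed by Pearson correlation, as a description, since arrays of a group share their genotype. They were picked as the highest r among all genes searched. How high r runs among unrelated genes picked this way was not tested. For Hopx they were Anxa3 (r = 0.964), Lpar3 (0.96) and Manf (0.958). After the group means were removed, these fell to between 0.376 and 0.437, so most of the likeness was the shared order of genotypes. For Irx4 they were Rtn4rl1 (0.919), Ndufaf1 (0.917) and Tctex1d2 (0.917), with 0.632 to 0.753 after removal. The 18 nearest genes of the 6 uncalled regulators had r of 0.823 to 0.913, and 0.839 to 0.964 within groups, values that the picking itself raises. They were Lor, Krt18 and Hs3st3a1 for Irx1, Sec16b, Anks1 and Zfp287 for Irx2, Cwc25, Defb42 and Mcrip1 for Irx3, and Vasn, Nfib and Hgsnat for Irx5. Hey1 had Zfp408, D7Ertd443e and Tpte, and Hey2 had G2e3, Ccdc77 and Mta1. Among the 8 regulators themselves the 28 pairs had r of -0.477 to 0.585, so none of them was among the nearest of another.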

How the data were processed

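RNA of dissected hearts was amplified and labelled with biotin, per the labels' protocols. The authors deposited log2 expression values per probe set (35557 on 12 arrays, array medians 8.05 to 8.25). Their summarisation software was not given in the sources used here. No step was added to the values. Of the probe sets, 21789 carried 1 symbol in the platform annotation, 1621 several and 12147 none. Per gene the single-symbol probe set with the highest mean was kept, which gave 19938 genes.

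Group means of all 12 arrays were fitted with limma 3.58.1 in R 4.3.3 (lmFit, eBayes, two-sided), after a test on simulated data. The 7 comparisons were the 6 pairs of genotypes and the non-additive term (double KO minus WT, less both single KO changes), with p adjusted over 19938 genes and called under 0.05. The p-values measure the spread between arrays numbered as biological replicates, and the number of arrays limits their precision.

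The genes and lists were chosen with earlier results of these data known. The text names the 8 genes and, among the genes searched, the 3 most correlated with each. It names up to 4 called genes of a list and comparison with the largest change. Measured neighbours, Nkx2-5, Tbx5, Irx6 and Heyl are named too. Jag2, Adam10, Rbpj, Srf and Hdac2 were named as well, after their values were seen. Alternatives were quantile normalization, median centring, array weights, an intensity trend, a filter on dim genes, other handling of probe sets, a replicate block, only the arrays compared, and each array left out. RefSeq promoters (GRCm38.p6) were listed for 5 of the 8 genes. Plots used matplotlib 3.10.9.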

Additional observations from a re-analysis of the deposited data

Results flagged for a closer look

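None of the 8 regulators (0) was flagged, and groups of 3 arrays were not tested for outlying samples. Among the genes of the chamber and inflow lists, 6 had an effect of Tbx5 loss that differed with the state of Nkx2-5, by the limma test of the non-additive term adjusted over all genes. Of them, 5 fell with Tbx5 loss where Nkx2-5 was present and changed less where it was absent. For Kcna5, a potassium channel, the effect was -0.23 ± 0.19 with Nkx2-5 absent and -2.44 ± 0.19 with it present, a difference of 2.21 ± 0.27 (adjusted p = 0.00443). For Nppb, B-type natriuretic peptide, it was -0.67 ± 0.26 and -3.19 ± 0.26, a difference of 2.52 ± 0.37 (adjusted p = 0.00923, or 0.0597 with all probe sets tested together). For Casq2, a calcium store protein, it was 0.19 ± 0.16 and -1.08 ± 0.16, a difference of 1.26 ± 0.23 (adjusted p = 0.0339), which was lost under 10 of 20 alternatives. The inflow factor Nr2f1 had 0.13 ± 0.16 and -1.39 ± 0.16, a difference of 1.52 ± 0.23 (adjusted p = 0.0109, or 0.0593 with all probe sets tested together). The inflow factor Shox2 had 0.47 ± 0.15 and -1.06 ± 0.15, a difference of 1.52 ± 0.21 (adjusted p = 0.0076). Wnt2, an inflow ligand, went the other way, with -1.10 ± 0.19 where Nkx2-5 was absent and 1.12 ± 0.19 where it was present, a difference of -2.22 ± 0.27 (adjusted p = 0.00443). In Nkx2-5 KO hearts the mean log2 value was 6.84 for Shox2, 7.08 for Casq2 and 8.22 for Kcna5. It was 8.74 for Nr2f1 and 10.01 for Nppb, beside array medians of 8.05 to 8.25. How far a low signal limits a further fall was not tested.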

How the results depend on the processing

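No result for the 8 genes changed direction past the threshold. Of 880 recomputed results for single genes, 867 stayed on their side of it, 8 lost a call and 5 gained one. The count of called genes among the 8 in Nkx2-5 KO against WT fell from 2 to 1 with all probe sets tested together and ran from 1 to 2 when arrays were left out. In double KO against Tbx5 KO it was 2 with array weights and 1 to 2 with arrays left out. In Tbx5 KO against Nkx2-5 KO it was 2 with array weights, 2 with the replicate block and 0 to 2 with arrays left out. Counts over all genes ran from 169 to 2132 (884 as reported) for Nkx2-5 KO against WT and from 212 to 933 (461) for Tbx5 KO against WT. They ran from 521 to 2481 (1109) for double KO against Nkx2-5 KO, from 1300 to 2884 (2139) against Tbx5 KO and from 3254 to 5322 (4672) against WT. For Tbx5 KO against Nkx2-5 KO they ran from 254 to 1424 (476), and for the non-additive term from 33 to 343 (109). The highest came with array weights. Centring each array on its median moved the median of all genes in double KO against WT from 0.06 to -0.06. Over all genes, arrays with the same replicate number did not deviate together (r -0.27 to 0.211 over 18 pairs, 3 over 0.1, and 2 of 12 arrays closest to their own number), so the numbers are not treated as pairs. For Irx3 and Irx5, however, replicate 1 was the lowest array in every genotype. Neither gene was called with the replicate block. With the replicate block 645, 378 and 4186 genes were called in Nkx2-5 KO, Tbx5 KO and double KO against WT. With 3 arrays a group, small changes could not be seen. Some changes whose 95% interval left out 0 were not called either, since the intervals are not adjusted over all genes. Irx4 in Tbx5 KO against Nkx2-5 KO hearts was such a case (0.31 to 1.06, limma adjusted p = 0.0639).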
